A study of Mus musculus with 27 samples.

Results

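The 10 genes of antigen presentation by the major histocompatibility complex (MHC) described here were followed in cardiac fibroblasts and whole hearts of mice from birth to old age. They are 5 genes of class I (B2m, H2-K1, H2-D1, Tap1 and Nlrc5) and 5 genes of class II (H2-Aa, H2-Ab1, H2-Eb1, Cd74 and Ciita). The 10 genes were picked by symbol, and all 10 symbols were found among the 22855 gene rows that the fibroblast and the heart count tables share. The mice were C57Bl/6, with no transgene or treatment named, and were taken on postnatal day 1, at 4 or 14 weeks, or when aged 1 or 1.5 years. PDGFRα fibroblasts, flow sorted from digested hearts by the surface receptor PDGFRα, gave 3, 3, 2, 2 and 2 samples from the youngest to the oldest age, and whole hearts gave 3 samples at each age. Poly(A) RNA was sequenced, and the 27 samples held between 46091300 and 76758800 counted reads each. The methods describe the samples of an age as separate animals or separately isolated sets of cells, and they name no sex for these libraries. They give 3 sets of fibroblasts at each age, where 2 are at hand from 14 weeks on. The labels number the fibroblast samples 1 to 3 at postnatal day 1 and 4 weeks, and 4 to 6 at the older ages. What the numbers stand for is not given, and across the step from 4 to 14 weeks they cannot be told apart from age.

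MHC class I molecules sit on nearly all nucleated cells and show peptides made inside the cell to CD8 T cells, while class II molecules are found mainly on professional antigen-presenting cells such as macrophages, dendritic cells and B cells and show peptides taken up from outside to CD4 T cells. A class I molecule is a heavy chain, such as H2-K1 or H2-D1, held by the light chain β2-microglobulin (B2m), and Tap1 is a subunit of the transporter that carries peptides to it. H2-Aa pairs with H2-Ab1 to form the class II molecule I-A, H2-Eb1 is the β chain of I-E (which C57Bl/6 mice do not display, since their α chain gene is defective), and Cd74 (the invariant chain) occupies their groove until a peptide is loaded. Nlrc5 and Ciita are the transcriptional coactivators best known for class I and class II genes, respectively, and both classes are inducible by interferon-γ.

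The labels were first checked against cell type markers. Pdgfra ranged from 689 to 1188 CPM (reads of a gene scaled to the library total) in the fibroblast samples and from 32.9 to 68.3 CPM in the hearts. The sorted fibroblasts also held transcripts of other cells: the summed level of 6 macrophage markers (Cd68, Adgre1, Csf1r, C1qa, Lyz2 and Fcgr1) was 90.8 to 168 CPM at postnatal day 1, 228 to 375 CPM at 4 weeks, 28.0 to 41.0 CPM at 14 weeks, 15.2 to 16.5 CPM at 1 year and 60.4 to 70.0 CPM at 1.5 years. The same sum in hearts was 51.6 to 71.1, 339 to 422, 278 to 315, 430 to 552 and 483 to 658 CPM at the 5 ages. All 6 macrophage markers were detected in every heart. The 4 B cell markers summed to at most 5.88 CPM in any sample, in fibroblast replicate 5 of 1.5 years. The dendritic cell markers Flt3 and Cd209a were at 0 in all fibroblast samples of postnatal day 1 and 4 weeks. Of the other dendritic cell markers, Zbtb46 was 5.62 to 13.4 CPM and 14.6 to 27.9 CPM in these samples, and Itgax at most 2.00 CPM. In fibroblasts of 1.5 years Itgax was 0.535 to 1.31 CPM and Flt3 at most 0.639 CPM. Among hearts the mean of Itgax was highest at 1 year, where it was 1.50 to 4.64 CPM. Xist, transcribed from the inactive X chromosome of females, was at most 0.641 CPM in every 14-week and 1-year sample, and the Y-linked gene Ddx3y was at most 0.454 CPM in every 1.5-year sample, so that age and sex cannot be told apart between 1.5 years and 14 weeks or 1 year. Both genes were detected in every sample of postnatal day 1 and 4 weeks. Of 5 sex-linked genes (Xist, Ddx3y, Kdm5d, Uty and Eif2s3y), 4 were lower at 1.5 years than at postnatal day 1 in both tissues. The other was higher in fibroblasts. From 4 to 14 weeks 3 were higher and 1 lower in fibroblasts, and 1 was lower in hearts (all by the test described below). The part of sex in changes across these ages was not tested. Because these are bulk libraries, more cells of a type and more RNA per cell cannot be told apart.

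Of the 10 genes, 6 lie in the MHC region of mouse chromosome 17 (GRCm38): H2-K1 at chr17:33996017-34000347, H2-Ab1 at chr17:34257689-34269419, H2-Aa at chr17:34282744-34287823, H2-Eb1 at chr17:34305867-34316674, Tap1 at chr17:34187553-34197225 and H2-D1 at chr17:35262730-35267499. Cd74 and the others lie apart from it, B2m at chr2:122147686-122153083, Nlrc5 at chr8:94434356-94527272 and Ciita at chr16:10480059-10528418, and Tap1 shares 3.87% of its exon bases with its neighbor Psmb9. RefSeq promoters (250 bases before to 50 bases after the start site) were given for 6 of the 10 genes, B2m, H2-K1, H2-D1, Tap1, H2-Aa and H2-Eb1. The stretches from 150 to 31 bases before the start site are printed for the light chain, a heavy chain and class II chains of both molecules, because these genes rose together in the data below. Capitals mark the matches to motifs that were searched on both strands: the NF-Y box (ATTGG, read CCAAT from the other strand), the X box core (AG, any 2 bases, AC, any 2 bases, ATG) and the interferon regulatory factor element (GAAA, any 2 bases, GAAA). The build is GRCm38.p6, and the stretches are chr2:122147537-122147656 (plus strand), chr17:35262944-35263063 (plus strand), chr17:34287854-34287973 (minus strand) and chr17:34305717-34305836 (plus strand), 5′ to 3′.
B2m: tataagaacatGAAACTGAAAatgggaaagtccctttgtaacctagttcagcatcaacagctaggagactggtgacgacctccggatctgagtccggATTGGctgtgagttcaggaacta
H2-D1: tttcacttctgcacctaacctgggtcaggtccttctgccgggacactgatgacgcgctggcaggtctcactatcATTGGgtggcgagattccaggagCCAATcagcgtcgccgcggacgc
H2-Aa: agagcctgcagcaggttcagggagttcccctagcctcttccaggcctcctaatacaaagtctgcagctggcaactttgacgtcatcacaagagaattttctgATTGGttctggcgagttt
H2-Eb1: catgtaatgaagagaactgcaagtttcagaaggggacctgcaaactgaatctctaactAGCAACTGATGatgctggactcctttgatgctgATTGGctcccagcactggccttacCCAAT
An NF-Y box was present in all 6 promoters, against 37.4% of 32851 RefSeq mouse promoters. The X box core was matched in H2-Eb1 only, and 3.09% of all promoters held it. The interferon regulatory factor element was matched in B2m only (3.44% of all promoters), and the interferon-γ activated site (TTC, any 3 bases, GAA) in none of the 6 (8.30% of all promoters). These matches are letters in the reference and were not measured in these hearts.

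In PDGFRα fibroblasts, all 5 class I genes rose between postnatal day 1 and 4 weeks, from 1.88-fold for Tap1 to 18.8-fold for Nlrc5. All levels are given as CPM after TMM scaling over the 27 samples, and an adjusted p is that of edgeR's quasi-likelihood F test with Benjamini-Hochberg adjustment over all genes tested. Where genes are counted, those said to have risen or fallen are the ones with an adjusted p under 0.05. H2-K1 was 25.8, 18.2 and 19.4 CPM at postnatal day 1 and 247, 284 and 419 CPM at 4 weeks. It then read 269 and 285 CPM at 14 weeks, 529 and 524 CPM at 1 year and 786 and 717 CPM at 1.5 years. All neonatal samples were below all later ones, and the 1-year and 1.5-year samples were above every younger sample. The increase to 4 weeks was 15.3-fold (log2 fold change 3.94 ± 0.22 SE, edgeR adjusted p = 1.74e-07), and that between postnatal day 1 and 1.5 years was 35.4-fold (5.14 ± 0.24, edgeR adjusted p = 2.77e-08).

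H2-D1, the other classical heavy chain of this strain, was 63.6, 30.5 and 49.4 CPM at postnatal day 1 and 466, 399 and 641 CPM at 4 weeks. The older fibroblasts gave 434 and 499 CPM at 14 weeks, 949.8 and 978 CPM at 1 year and 1383 and 1227 CPM at 1.5 years. The samples of 4 and 14 weeks overlapped, and those of 1.5 years were the highest. H2-D1 rose 10.7-fold to 4 weeks (log2 fold change 3.42 ± 0.26 SE, edgeR adjusted p = 2.14e-06) and 27.1-fold to 1.5 years (4.76 ± 0.28, edgeR adjusted p = 2.14e-07).

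B2m, the shared light chain, started from a far higher level and changed less. It was 306, 293 and 340.4 CPM at postnatal day 1, 687, 649 and 887 CPM at 4 weeks and 929.9 and 1056 CPM at 14 weeks. It reached 1163 and 1141 CPM at 1 year and 1880.2 and 1794 CPM at 1.5 years, and no 2 neighboring ages overlapped. The rise to 4 weeks was 2.41-fold (log2 fold change 1.27 ± 0.14 SE, edgeR adjusted p = 4.37e-05) and that to 1.5 years 5.84-fold (2.55 ± 0.15, edgeR adjusted p = 2.23e-07).

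Tap1 was already present in neonatal fibroblasts, at 25.1, 28.1 and 27.8 CPM, and read 40.9, 35.3 and 72.1 CPM at 4 weeks. It was 23.6 and 21.9 CPM at 14 weeks, 43.3 and 35.8 CPM at 1 year and 41.1 and 56.4 CPM at 1.5 years, so that the 14-week samples were the lowest of all. The increase to 4 weeks was 1.88-fold (log2 fold change 0.91 ± 0.25 SE, edgeR adjusted p = 0.0267), and the difference between 1.5 years and postnatal day 1 did not pass (edgeR adjusted p = 0.0534). Leaving out any of the 3 neonatal libraries or 4-week replicate 3 ended the Tap1 call at 4 weeks (edgeR adjusted p between 0.0574 and 0.0961). That 4-week library held the highest levels of B2m, H2-K1, H2-D1, Tap1 and Nlrc5 at its age, and its 7 endothelial markers summed to 1611 CPM against 511 CPM in the lowest library of that age. The part of the endothelial transcripts in the class I levels was not tested.

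Nlrc5, the class I coactivator, was uneven in the neonatal fibroblasts, with 0.0107, 1.40 and 0.0774 CPM (1, 109 and 6 reads). It was 6.07, 4.37 and 16.7 CPM at 4 weeks and 5.88 and 7.32 CPM at 14 weeks, and every later sample was above all neonatal ones. The 1-year samples gave 6.34 and 5.21 CPM and the 1.5-year samples 10.8 and 15.7 CPM. The rise to 4 weeks was 18.8-fold (log2 fold change 4.23 ± 1.16 SE, edgeR adjusted p = 0.0258), and it did not pass without neonatal replicate 3 (edgeR adjusted p = 0.0685) or 4-week replicate 3 (0.0861). The rise to 1.5 years (log2 fold change 4.74 ± 1.23 SE, edgeR adjusted p = 0.0182) did not pass without 1.5-year replicate 5 (0.0629).

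**Figure D1:**
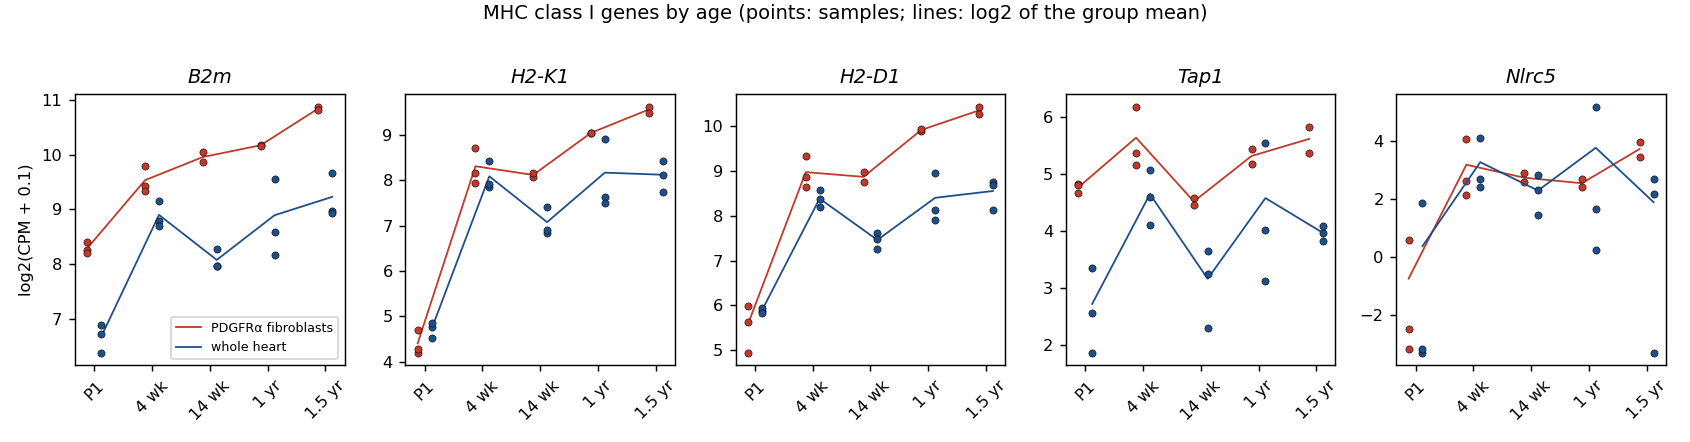
Level of the 5 class I genes in each sample, as log2(CPM + 0.1), at the 5 ages in PDGFRα fibroblasts (red) and whole hearts (blue), with lines through the group means (fibroblasts n = 3, 3, 2, 2 and 2, hearts n = 3 at each age). Neonatal samples sit lowest for B2m, H2-K1 and H2-D1 in both tissues, B2m in fibroblasts sits higher at each older age, and 1-year heart replicate 3 stands above the other hearts of its age.

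In whole hearts 4 of the 5 class I genes rose between postnatal day 1 and 4 weeks with an adjusted p under 0.05. Nlrc5 was 8.11-fold higher at 4 weeks but did not pass (log2 fold change 3.02 ± 1.72 SE, edgeR adjusted p = 0.250). H2-K1 was 27.1, 23.1 and 28.7 CPM at postnatal day 1, 342, 232 and 240.3 CPM at 4 weeks and 114, 169.9 and 120.4 CPM at 14 weeks. It was 199, 182 and 479.9 CPM at 1 year and 215, 341 and 279 CPM at 1.5 years. The 14-week hearts lay above the neonatal ones and below all others. The rise to 4 weeks was 10.5-fold (log2 fold change 3.39 ± 0.34 SE, edgeR adjusted p = 2.10e-06), and that to 1.5 years 10.3-fold (3.37 ± 0.34, edgeR adjusted p = 1.48e-06).

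H2-D1 followed the same order in the heart, with 58.3, 61.5 and 57 CPM at postnatal day 1, 380.1, 329.6 and 291 CPM at 4 weeks and 153, 195 and 179 CPM at 14 weeks. Its levels were 281, 240.2 and 492 CPM at 1 year and 281, 432 and 412 CPM at 1.5 years, and the 4-week, 1-year and 1.5-year hearts overlapped. It rose 5.75-fold to 4 weeks (log2 fold change 2.52 ± 0.24 SE, edgeR adjusted p = 1.47e-06) and 6.21-fold to 1.5 years (2.63 ± 0.24, 6.36e-07).

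B2m in hearts was 106, 82.9 and 118 CPM at postnatal day 1, 571, 444 and 417 CPM at 4 weeks and 248, 311 and 250.03 CPM at 14 weeks. Hearts of 1 year gave 384, 286 and 756 CPM and those of 1.5 years 499, 814 and 486 CPM. The neonatal hearts were the lowest, and the 1-year hearts overlapped every group from 4 weeks on. The rise to 4 weeks was 4.74-fold (log2 fold change 2.25 ± 0.30 SE, edgeR adjusted p = 5.41e-05) and that to 1.5 years 5.73-fold (2.52 ± 0.31, 1.20e-05).

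Tap1 was 3.52, 5.80 and 10.1 CPM in neonatal hearts, 33.5, 24 and 17.1 CPM at 4 weeks and 9.35, 12.3 and 4.80 CPM at 14 weeks. It was 16.1, 8.64 and 46.3 CPM at 1 year and 15.5, 16.9 and 14 CPM at 1.5 years. The 1-year hearts were spread most widely, and of the comparisons between ages only the 4-week increase passed (log2 fold change 1.96 ± 0.53 SE, edgeR adjusted p = 0.0159), a call that ended without neonatal replicate 1 or 2 or 4-week replicate 1 (edgeR adjusted p between 0.0581 and 0.0724). Nlrc5 passed in no heart comparison: it was 0, 0.0115 and 3.58 CPM at postnatal day 1, 17.2, 5.30 and 6.42 CPM at 4 weeks and 4.85, 7.01 and 2.63 CPM at 14 weeks. Its levels of 3.05, 1.10 and 36.8 CPM at 1 year and 4.42, 6.47 and 0 CPM at 1.5 years ran from no read to 1674 reads in a library. Heart replicate 3 of 1 year was the highest of its age for all 5 class I genes, and its macrophage marker sum of 430 CPM was the lowest of that age, while its 4 leukocyte markers (90.2 CPM against 67.2 and 78.4 CPM), its T cell markers (3.21 CPM against 2.23 and 0.470 CPM) and its endothelial markers (681 CPM against 624 and 616 CPM) summed highest. The part of these cells in its class I levels was not tested.

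Counted over both classes, 9 of the 10 genes rose from postnatal day 1 to 4 weeks in fibroblasts (all but Ciita), where 9.28% of all genes tested rose and 6.20% fell. In hearts 9 of the 10 rose as well (all but Nlrc5), beside 12.1% of all genes higher and 6.10% lower. The median log2 fold change of the 10 genes was 4.14 in fibroblasts against 0.00 over all genes, and 3.72 in hearts against -0.09. Between postnatal day 1 and 1.5 years, 8 rose in fibroblasts (not Tap1 or Ciita; 9.86% of all genes higher, 6.46% lower) and 8 in hearts (not Tap1 or Nlrc5; 15.6% higher, 16.3% lower). Over the 5 ages together, 8 of 10 differed in fibroblasts (19.9% of all genes) and 9 of 10 in hearts (34.3%). The tests against postnatal day 1 share the same neonatal samples.

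Between 4 and 14 weeks none of the 10 genes passed in either tissue. In fibroblasts 2 genes had an unadjusted p under 0.05, B2m upward and Tap1 downward, and DESeq2 called 1, Tap1 (1.79% of all genes higher and 2.08% lower by edgeR). In hearts 4 had an unadjusted p under 0.05, all downward and all of class I, and DESeq2 called 2, H2-K1 and H2-D1 (0.756% of all genes higher, 0.850% lower). Tap1 in fibroblasts and H2-D1 in hearts stood closest to the threshold, at edgeR adjusted p = 0.0507 and 0.0566. All 3 heart samples of 14 weeks read below all 3 of 4 weeks for B2m, H2-K1, H2-D1 and Tap1. The share of all genes that separate in this way was not counted, for these or any other groups. Separation of samples therefore carries no test here or elsewhere.

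Between 14 weeks and 1 year, both ages with Xist near 0, no gene passed in fibroblasts (1.31% of all genes higher, 0.474% lower). There 3 had an unadjusted p under 0.05, all upward (H2-K1, H2-D1 and Tap1), and DESeq2 called 2, H2-K1 and H2-D1. In hearts 2 class II genes rose, H2-Eb1 and Cd74 (0.389% of all genes higher, 0.583% lower), and 8 had an unadjusted p under 0.05, all upward.

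From 14 weeks to 1.5 years the transcripts of the class I molecule itself rose in both tissues. In fibroblasts B2m rose 1.80-fold (log2 fold change 0.85 ± 0.17 SE, edgeR adjusted p = 0.0189), H2-K1 2.64-fold (1.40 ± 0.24, 0.0103) and H2-D1 2.73-fold (1.45 ± 0.29, 0.0216). These were the 3 calls among the 10 genes, beside 1.91% of all genes higher and 0.816% lower. With 2 samples a group they rest on each library: without 14-week replicate 4 or 6 no call was left, and without 1.5-year replicate 4 or 5 only H2-K1 passed among the 3, with every fold change still upward. The class II genes H2-Aa, H2-Ab1 and Cd74 were 2.80-fold, 2.99-fold and 2.82-fold higher in these fibroblasts without passing. Of the 10 genes 7 had an unadjusted p under 0.05 there, all upward. In hearts 5 of the 10 rose (4.91% of all genes higher, 7.86% lower): B2m 2.14-fold (log2 fold change 1.10 ± 0.29 SE, edgeR adjusted p = 0.0218), H2-K1 1.98-fold (0.99 ± 0.31, 0.0452), H2-D1 2.05-fold (1.03 ± 0.23, 0.00815), and H2-Eb1 and Cd74 as given below. The heart calls of B2m ended without 14-week replicate 1 or 3 or 1.5-year replicate 2 (edgeR adjusted p between 0.0858 and 0.108), and those of H2-K1 without 4-week replicate 3, any 14-week replicate or 1.5-year replicate 2 or 3 (0.0505 to 0.158). Leukocyte markers (Ptprc, Coro1a, Laptm5 and Cd53) summed to 40.0 to 48.9 CPM in hearts of 14 weeks and 79.5 to 116 CPM at 1.5 years, and to 10.4 to 11.0 and 16.0 to 35.7 CPM in fibroblasts. The 7 endothelial markers summed to 1322 and 1114 CPM in fibroblasts of 14 weeks and 273 and 1107 CPM at 1.5 years. The part of these cells, and of sex, in the class I changes was not tested.

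**Figure D2:**
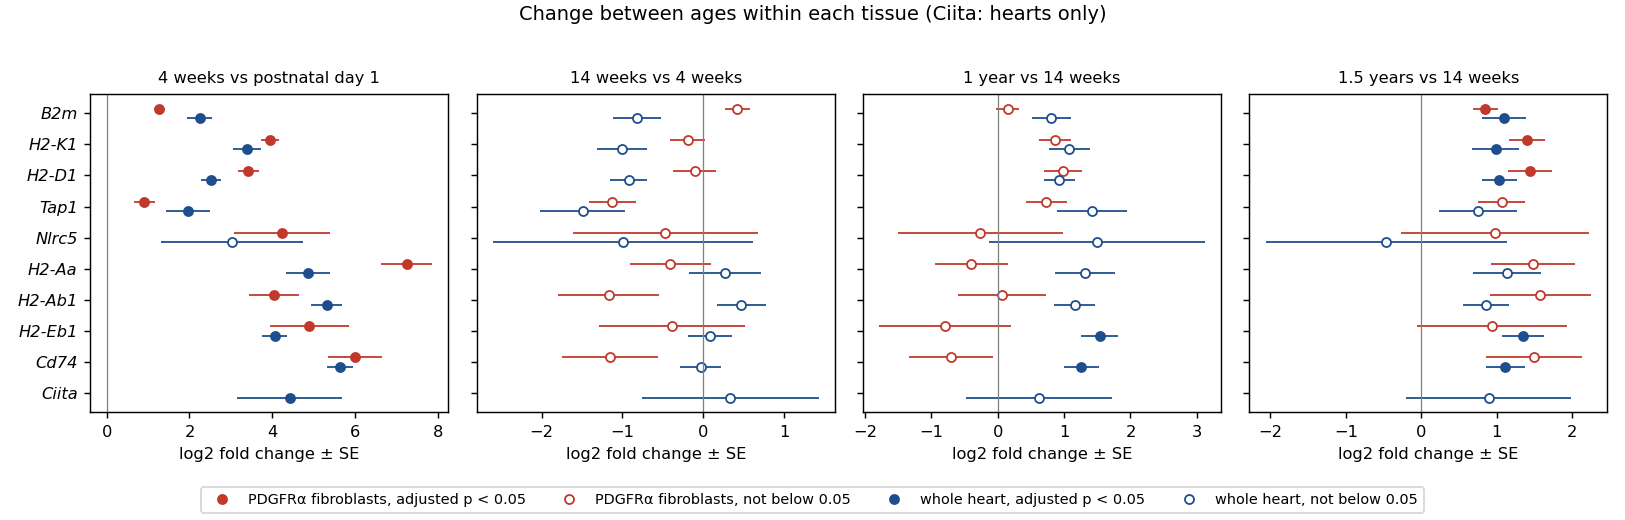
Log2 fold change with its SE for the 10 genes between 4 pairs of ages, in PDGFRα fibroblasts (red) and whole hearts (blue), with filled points for an adjusted p below 0.05. Nearly all points of the first panel lie to the right and filled, none is filled between 4 and 14 weeks, and the filled points at 1.5 years against 14 weeks are B2m, H2-K1 and H2-D1 in both tissues with H2-Eb1 and Cd74 in hearts (Ciita is shown for hearts only, because all neonatal fibroblasts had no read).

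The ratio of heavy to light chain was lowest in neonatal fibroblasts. Per kilobase of transcript, the level of H2-K1 and H2-D1 together was 0.130, 0.0755 and 0.0896 of that of B2m at postnatal day 1 and 0.468, 0.484 and 0.547 at 4 weeks. This ratio was 0.345 and 0.336 at 14 weeks, 0.576 and 0.595 at 1 year and 0.523 and 0.492 at 1.5 years. The neonatal fibroblasts were the lowest without overlap, next to hearts of the same age with 0.362, 0.452 and 0.328. From 4 weeks on hearts ranged from 0.439 to 0.681. Per kilobase, B2m stood above both heavy chains at every age in both tissues: at 1.5 years fibroblasts held 2136 ± 70.6 CPM per kb of B2m (SD, n = 2), 621 ± 52.5 of H2-D1 and 464 ± 30.2 of H2-K1. H2-D1 exceeded H2-K1 per kilobase in all 12 fibroblast samples, with a ratio of 1.08 to 1.96. The ratio in hearts was 1.66, 2.05 and 1.53 at postnatal day 1, overlapping the neonatal fibroblasts, and lay between 0.789 and 1.15 from 4 weeks on. The heavy chains have near copies: of all 65-base windows of their transcripts, 4.70% of H2-K1 and 6.95% of H2-D1 also occur in other genes, most often H2-Q10 and H2-Q1, respectively.

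**Figure D3:**
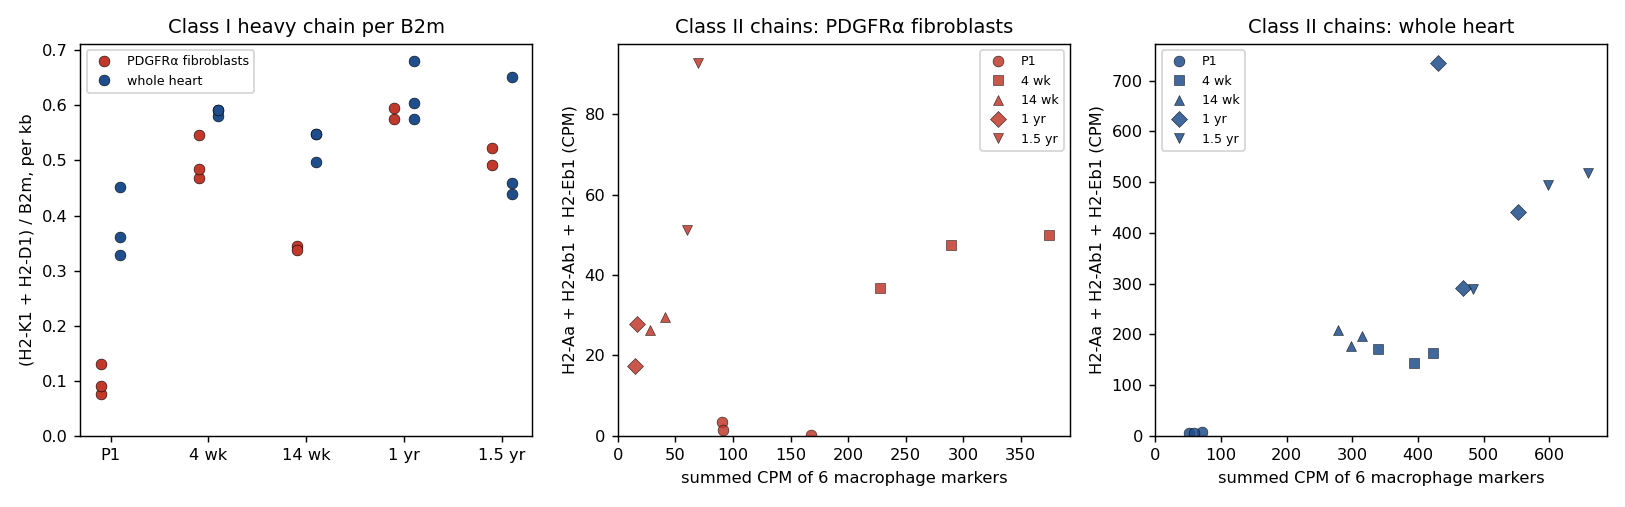
Left, summed H2-K1 and H2-D1 level over B2m level, both per kilobase of transcript, in each sample by age in fibroblasts (red) and hearts (blue). Middle and right, summed CPM of H2-Aa, H2-Ab1 and H2-Eb1 against summed CPM of 6 macrophage markers in each fibroblast and heart sample, with a symbol for each age. Neonatal fibroblasts have the lowest left-hand ratio (0.0755 to 0.130), and in fibroblasts of 1.5 years the class II sum reached 92.8 CPM at a marker sum of 70.0 CPM.

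All 5 class II genes were low in the neonatal heart and rose by 4 weeks, and none passed between 4 and 14 weeks. Cd74, the invariant chain, was 3.74, 2.71 and 4.42 CPM at postnatal day 1, 181, 152 and 201 CPM at 4 weeks and 154, 185 and 183 CPM at 14 weeks. It was 383, 281 and 597 CPM at 1 year and 281, 499 and 395 CPM at 1.5 years, and every heart of these 2 ages lay above every younger heart. The rise to 4 weeks was 49.8-fold (log2 fold change 5.64 ± 0.31 SE, edgeR adjusted p = 6.81e-09) and that to 1.5 years 105-fold (6.72 ± 0.33, 1.42e-09).

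The chains of the class II molecules followed the same order. H2-Aa was 3.84, 0.482 and 1.64 CPM in neonatal hearts, 62.4, 46.5 and 60.5 CPM at 4 weeks, 60.4, 72.6 and 70.5 CPM at 14 weeks, 152, 104 and 253 CPM at 1 year and 106, 184 and 177 CPM at 1.5 years. H2-Ab1, its partner, was 0.932, 1.37 and 1.69 CPM, 53.3, 54.1 and 49.6 CPM, 66.1, 82.5 and 69.1 CPM, 151, 93.8 and 247 CPM and 82.7, 173 and 155 CPM at the same ages. H2-Eb1 was 3.13, 3.69 and 2.39 CPM, 56, 41.8 and 52.9 CPM, 49.5, 52.8 and 57.3 CPM, 138, 94.1 and 236 CPM and 101, 161 and 162 CPM. For all 3 chains the neonatal hearts were lowest and the hearts of 1 and 1.5 years were above those of 14 weeks without overlap. The rises to 4 weeks were 29-fold for H2-Aa (log2 fold change 4.86 ± 0.53 SE, edgeR adjusted p = 6.16e-06), 39.8-fold for H2-Ab1 (5.32 ± 0.37, 5.35e-08) and 16.6-fold for H2-Eb1 (4.05 ± 0.31, 1.23e-07). By 1.5 years the log2 fold changes over postnatal day 1 were 6.26 ± 0.57 SE for H2-Aa, 6.65 ± 0.40 for H2-Ab1 and 5.49 ± 0.33 for H2-Eb1 (edgeR adjusted p = 5.36e-07, 7.24e-09 and 7.75e-09).

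After 14 weeks, H2-Eb1 and Cd74 were the class II genes that passed in hearts. H2-Eb1 was 2.91-fold higher at 1 year (log2 fold change 1.54 ± 0.28 SE, edgeR adjusted p = 0.0201) and 2.55-fold higher at 1.5 years (1.35 ± 0.28, 0.00485). Cd74 was 2.40-fold higher at 1 year (1.26 ± 0.26, edgeR adjusted p = 0.0321) and 2.16-fold higher at 1.5 years (1.11 ± 0.26, 0.00997). Both 1-year calls ended without any 14-week replicate or without 1-year replicate 1 or 3, at edgeR adjusted p between 0.0532 and 0.122 for H2-Eb1 and between 0.0945 and 0.168 for Cd74, and that of Cd74 at 1.5 years ended without 14-week replicate 1 (0.0521). H2-Aa and H2-Ab1 did not pass at either age (edgeR adjusted p between 0.0767 and 0.188), and whether they differ in this from H2-Eb1 was not tested.

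Ciita, the class II coactivator, was low throughout the heart samples, with 0, 0 and 0.262 CPM (0, 0 and 22 reads) at postnatal day 1 and 3.04, 0.849 and 1.79 CPM at 4 weeks. It read 2.57, 2.11 and 2.48 CPM at 14 weeks, 4.38, 2.48 and 4.28 CPM at 1 year and 2.06, 4.42 and 7.37 CPM at 1.5 years. All later hearts lay above the neonatal ones. The rise to 4 weeks (log2 fold change 4.42 ± 1.27 SE, edgeR adjusted p = 0.0220) ended without neonatal replicate 1 or 2 or 4-week replicate 1 (0.0587 to 0.0590), whereas that to 1.5 years (5.65 ± 1.34, 0.00402) held without any single library but did not pass in a fit of only these 2 ages (0.0560).

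The class II levels of the hearts were also set beside the macrophage transcripts in the same libraries. The summed level of H2-Aa, H2-Ab1 and H2-Eb1 was 5.53 to 7.90 CPM at postnatal day 1, 142 to 172 CPM at 4 weeks, 176 to 208 CPM at 14 weeks, 292 to 736 CPM at 1 year and 290 to 518 CPM at 1.5 years. Per CPM of the 6 macrophage markers it was 0.0961 to 0.111, 0.362 to 0.506, 0.590 to 0.747, 0.624 to 1.71 and 0.600 to 0.827 CPM at these ages. The neonatal hearts therefore stayed lowest per macrophage marker, the 4-week hearts came next without overlap, and the 3 oldest groups overlapped. Both sums were lowest in neonatal hearts, but between 4 and 14 weeks the class II sum was higher and the marker sum lower, each without overlap. The highest ratio was that of 1-year replicate 3, and the part of the macrophage transcripts in these levels was not tested beyond this ratio.

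**Figure D4:**
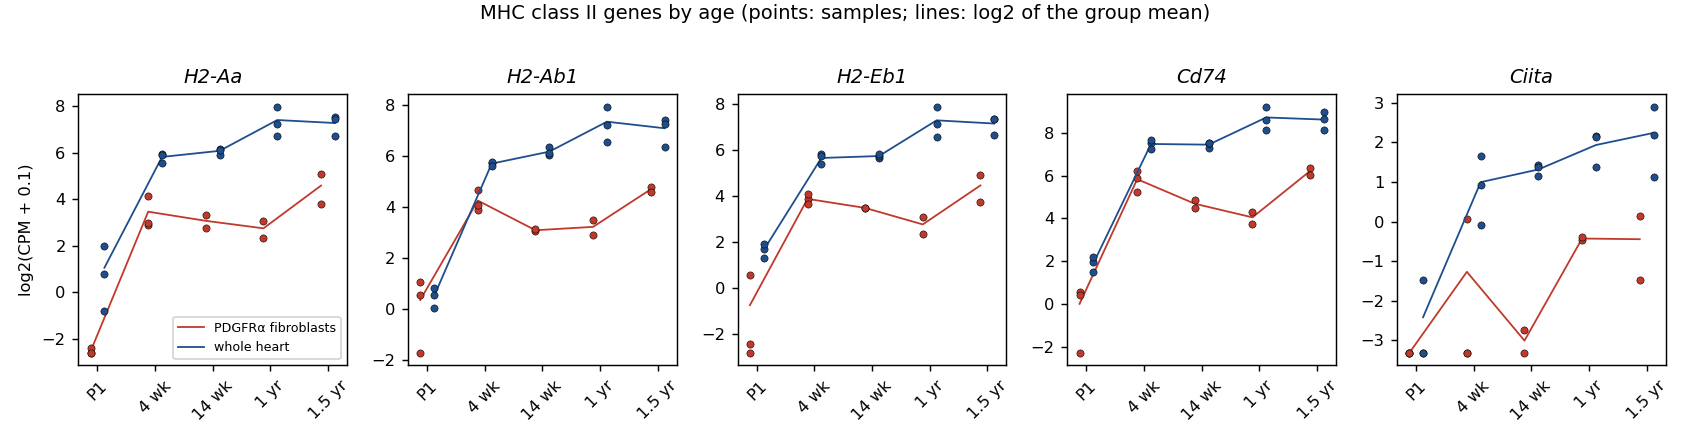
Level of the 5 class II genes in each sample, as log2(CPM + 0.1), at the 5 ages in PDGFRα fibroblasts (red) and whole hearts (blue), with lines through the group means (fibroblasts n = 3, 3, 2, 2 and 2, hearts n = 3 at each age). Hearts lie above fibroblasts for all 5 genes from 4 weeks on apart from overlap in Ciita at 4 weeks, and Ciita had no read in any neonatal fibroblast sample.

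In PDGFRα fibroblasts 4 of the 5 class II genes, all but Ciita, rose from near 0 to levels below those of the hearts. H2-Aa was 0.0644, 0.0900 and 0.0645 CPM at postnatal day 1 (6, 7 and 5 reads) and 7.37, 7.80 and 17.8 CPM at 4 weeks. It was 6.76 and 9.92 CPM at 14 weeks, 8.34 and 4.96 CPM at 1 year and 34.4 and 13.7 CPM at 1.5 years. All later samples were above the neonatal ones, and the rise to 4 weeks was 152-fold (log2 fold change 7.25 ± 0.61 SE, edgeR adjusted p = 5.71e-06).

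H2-Ab1 was 0.204, 1.99 and 1.37 CPM, 14.9, 25.3 and 17.1 CPM, 8.25 and 8.69 CPM, 11.1 and 7.47 CPM and 28 and 23.9 CPM from the youngest to the oldest fibroblasts. H2-Eb1 was 0.0430, 1.38 and 0.0903 CPM, 14.4, 16.8 and 12.6 CPM, 11.2 and 11 CPM, 8.43 and 5.03 CPM and 30.4 and 13.5 CPM. Cd74 was 1.35, 1.25 and 0.103 CPM, 37.6, 59.6 and 73 CPM, 22.2 and 28.9 CPM, 19.8 and 13 CPM and 82.9 and 65.1 CPM. For all 3 the neonatal samples were lowest, the samples of 14 weeks and 1 year were below those of 4 weeks and 1.5 years, and the samples of these last 2 ages overlapped. The rises to 4 weeks were 16.4-fold for H2-Ab1 (log2 fold change 4.04 ± 0.61 SE, edgeR adjusted p = 0.000592), 29.7-fold for H2-Eb1 (4.89 ± 0.96, 0.00368) and 63.9-fold for Cd74 (5.997 ± 0.64, 3.80e-05). By 1.5 years the log2 fold changes over postnatal day 1 were 8.32 ± 0.65 SE for H2-Aa, 4.45 ± 0.65 for H2-Ab1, 5.44 ± 1.01 for H2-Eb1 and 6.34 ± 0.67 for Cd74 (edgeR adjusted p = 2.05e-06, 0.000366, 0.00224 and 2.61e-05). No class II gene passed between 14 weeks and 1.5 years, where H2-Aa had the lowest edgeR adjusted p, 0.229.

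Ciita had no read in any of the 3 neonatal fibroblast samples, where 3 reads in each library would average 0.0365 CPM. It read 0, 0 and 0.944 CPM at 4 weeks, 0 and 0.0487 CPM at 14 weeks, 0.625 and 0.660 CPM at 1 year and 0.260 and 1.01 CPM at 1.5 years. The mean at 1.5 years was thus at least 17.4-fold higher than this floor, but the difference did not pass (edgeR adjusted p = 0.127). This floor covers counting error only.

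The class II levels of the fibroblasts did not keep a fixed ratio to the macrophage transcripts in the same libraries. The summed chains were 0.00185 to 0.0381 CPM per CPM of macrophage markers at postnatal day 1 and 0.133 to 0.164 at 4 weeks, against 0.723 to 0.936 at 14 weeks, 1.15 to 1.69 at 1 year and 0.845 to 1.33 at 1.5 years. The 4-week fibroblasts held the most macrophage transcripts, and a ratio below that of every sample of the 3 older groups. The part of these cells in the class II levels was not tested.

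Fibroblasts and hearts were then set side by side in 1 fit of all 27 samples, which did not pair them by animal. At postnatal day 1, B2m and Tap1 were higher in fibroblasts (13.6% of all genes), by 3.07-fold (log2 difference 1.62 ± 0.26 SE, edgeR adjusted p = 2.87e-05) and 4.17-fold (2.06 ± 0.47, 0.00126). H2-Aa, H2-Eb1 and Cd74 were lower (18.7% of all genes), with log2 differences of -4.74 ± 0.68 (edgeR adjusted p = 5.75e-06), -2.63 ± 0.64 (0.00224) and -1.996 ± 0.46 (0.00155). The heavy chains H2-K1 and H2-D1 overlapped between the tissues at this age.

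At 1.5 years the classes separated, with 4 class I genes higher in fibroblasts (21.0% of all genes) and 4 class II genes higher in hearts (17.9%). The class I differences were 3.06-fold for B2m (log2 difference 1.62 ± 0.28 SE, edgeR adjusted p = 5.20e-05), 2.70-fold for H2-K1 (1.43 ± 0.31, 0.000607), 3.48-fold for H2-D1 (1.80 ± 0.28, 9.65e-06) and 3.15-fold for Tap1 (1.66 ± 0.50, 0.00974). Fibroblast levels were lower for H2-Aa (log2 difference -2.69 ± 0.59 SE, edgeR adjusted p = 0.000627), H2-Ab1 (-2.40 ± 0.53, 0.000746), H2-Eb1 (-2.69 ± 0.69, 0.00296) and Cd74 (-2.40 ± 0.52, 0.000540). Fibroblasts and hearts did not overlap for any of the 8, but these were called on the same samples, so that this separation adds no test. The calls of Tap1 and H2-Eb1 ended without fibroblast replicate 5 of 1.5 years (edgeR adjusted p = 0.0831 and 0.0642).

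The change between postnatal day 1 and 1.5 years itself differed between the tissues for 3 of the 10 genes (7.88% of all genes changed more upward in fibroblasts and 5.77% more upward in hearts). The median difference over all genes was 0.32 on the log2 scale. H2-K1 and H2-D1 rose more in fibroblasts, by a log2 difference of 1.75 ± 0.42 SE (edgeR adjusted p = 0.00759) and 2.10 ± 0.37 (0.000564). H2-Ab1 rose less in fibroblasts (-2.23 ± 0.69 SE, edgeR adjusted p = 0.0340), a call that ended without any of 7 libraries: neonatal fibroblast replicate 2 or 3, fibroblast replicate 4 or 5 of 1.5 years, neonatal heart replicate 1 or 2, or heart replicate 2 of 1.5 years (0.0570 to 0.132).

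**Figure D5:**
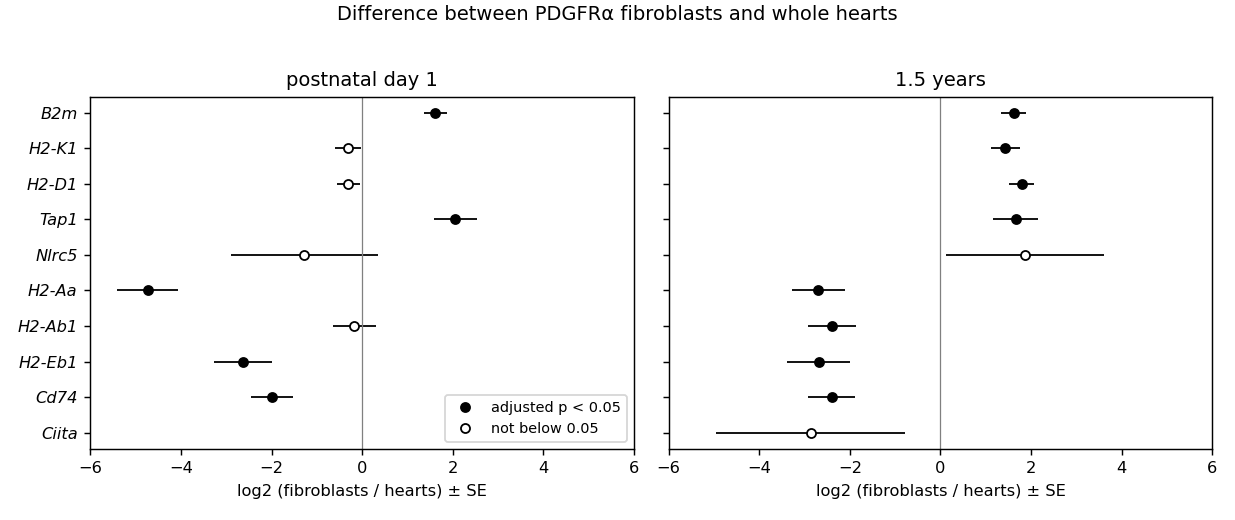
Log2 difference between PDGFRα fibroblasts and whole hearts with its SE for the 10 genes at postnatal day 1 and at 1.5 years, with filled points for an adjusted p below 0.05. B2m and Tap1 lie to the right at both ages, H2-K1 and H2-D1 only at 1.5 years, and the class II genes H2-Aa, H2-Eb1 and Cd74 to the left at both (Ciita is not shown at postnatal day 1, where fibroblasts had no read).

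The other genes of the class I pathway were 19 peptide-loading, proteasome and nonclassical heavy chain genes. Of the 19, 17 rose from postnatal day 1 to 4 weeks in fibroblasts and 14 in hearts (9.28% and 12.1% of all genes), with median log2 fold changes of 1.80 and 1.29 against 0.00 and -0.09 over all genes. The largest changes were those of the nonclassical heavy chains: H2-Q7 averaged 0.0200 CPM in neonatal and 10.5 CPM in 4-week fibroblasts, and H2-Q4 rose by 3.67 ± 0.34 SE on the log2 scale (edgeR adjusted p = 1.07e-05). Psmb9, a subunit of the immunoproteasome, which cuts peptides for class I, rose by 3.36 ± 0.98 SE (0.0353), and Psmb8, of the same complex, by 2.80 ± 0.43 SE in hearts (edgeR adjusted p = 0.000168). From 14 weeks to 1.5 years 3 of the 19 rose in fibroblasts (1.91% of all genes), H2-Q4 by 2.07 ± 0.39 SE (edgeR adjusted p = 0.0142), H2-T23 by 1.33 ± 0.27 (0.0210) and Tapbp, the peptide editor tapasin, by 0.79 ± 0.13 (0.00745). In hearts 5 rose and 1 fell (4.91% and 7.86% of all genes). The rises were led by Psmb9 (1.75 ± 0.45 SE, edgeR adjusted p = 0.0169) and H2-T22 (1.54 ± 0.34, 0.00774), and the chaperone Canx, named because it was the only one, fell by 0.87 (SE 0.16, 0.00294). The H2-Q, H2-T and Psmb9 values share reads with near copies or neighbors to an extent that was not measured here.

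Of 13 other genes listed for the class II pathway 12 were in the tables, and 7 rose from postnatal day 1 to 4 weeks in hearts, where 12.1% of all genes rose, and 1 of the 11 tested rose in fibroblasts, a share near the 9.28% of all genes. In hearts H2-DMb1, which helps load peptides on class II, rose by 2.75 ± 0.60 SE on the log2 scale (edgeR adjusted p = 0.00386), and Ctss, the protease that trims Cd74, by 2.11 ± 0.27 (3.47e-05). H2-Oa and H2-Ob, which hold back peptide loading, had no read in neonatal hearts and averaged 0.800 and 0.815 CPM at 4 weeks. The gene that rose in fibroblasts was Cd80, a costimulatory ligand with no read in neonatal fibroblasts and 5.46 CPM at 4 weeks. From 4 to 14 weeks 2 of the 11 tested fell in fibroblasts (2.08% of all genes lower). Ctss fell by 2.70 on the log2 scale (SE 0.52, edgeR adjusted p = 0.0140), and Lgmn, another lysosomal protease, by 1.03 (SE 0.22, 0.0214). Of the 6 macrophage markers 4 fell over the same step there. Ctss also differed between the tissues in its change between postnatal day 1 and 1.5 years, with a log2 difference of -3.50 ± 0.55 SE, lower in fibroblasts (edgeR adjusted p = 0.000159). By the same test 5 of the 6 macrophage markers were lower in fibroblasts. The part of macrophage transcripts in the changes of Ctss was not tested.

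Of 17 regulators of these genes, chiefly the interferon-γ pathway and the factors that bind the NF-Y and X boxes, 16 were tested. From postnatal day 1 to 4 weeks 5 rose and 1 fell in fibroblasts (9.28% and 6.20% of all genes), and 4 rose in hearts (12.1%). Socs1, an inhibitor of interferon signaling, rose by 1.76 ± 0.24 SE on the log2 scale in fibroblasts (edgeR adjusted p = 0.000233) and the receptor chain Ifngr1 by 1.26 ± 0.22 (0.00145), while Irf8 fell by 1.04 (SE 0.16, 0.000735). Irf1, an interferon-induced activator of class I genes, rose by 2.44 ± 0.27 SE in hearts (edgeR adjusted p = 7.79e-06). In fibroblasts Irf1 was 309 ± 65.1 CPM (mean ± SD) at postnatal day 1, 312 ± 220.5 CPM at 4 weeks, 127 ± 10.7 CPM at 14 weeks, 192 ± 14.1 CPM at 1 year and 519 ± 84.2 CPM at 1.5 years (n = 3, 3, 2, 2 and 2). It rose from 14 weeks to 1.5 years by 2.000 ± 0.46 SE (edgeR adjusted p = 0.0412) together with Socs1 (3.26 ± 0.31, 0.000301) and Irf8 (2.22 ± 0.21, 0.000301). These were 3 of the 16, beside 1.91% of all genes higher. In hearts 1 of the 16 rose and 1 fell over the same ages, shares near the 4.91% and 7.86% of all genes. Irf8 rose there (1.39 ± 0.31 SE, edgeR adjusted p = 0.00859) and the kinase Jak1 fell by 0.88 (SE 0.15, 0.00178).

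The genes with a course over samples most like each class were found by Pearson's r with the mean of the 5 standardized log2 levels of that class. In the 12 fibroblast samples class I was most like H2-Q4 (r = 0.982), Adam15 (0.980), Klf4 (0.978), Gfpt2 (0.977) and Gm45053 (0.976) among 13046 genes. Class II was like Gbp2 (0.978), Trip10 (0.976), Klf4 (0.971) and Anxa1 (0.970), so that Klf4 stood in both. In the 15 hearts class I was most like Irf1 (r = 0.947), H2-Q4 (0.947), H2-Q7 (0.945), Nckap1l (0.944) and Cyth4 (0.929) among 13374 genes, and class II was most like 2210408F21Rik (0.977), Folr2 (0.976), Lyz2 (0.975), 2310039L15Rik (0.974) and Trim7 (0.972). Lyz2 is one of the 6 macrophage markers summed above. The samples of an age share that age, and the neonatal samples are apart from the rest in these courses, so that r describes the samples and carries no test.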

How the data were processed

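Counts of reads per gene were deposited by the authors in 1 table for fibroblasts and 1 for hearts. Per the labels the libraries were made from poly(A) RNA. Per the study's methods they were sequenced as single 65-base reads, aligned to mm10 with STAR 2.5.3a and counted per gene by STAR, and the strand setting of that counting is not given in the sources used here. Without it, reads from overlapping genes on opposite strands cannot be told apart. No table normalization had been applied, and totals of 46091300 to 76758800 counts per sample set the precision for genes with few reads.

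Counts were tested with edgeR 4.0.16 in R 4.3.3 (TMM scaling, filterByExpr by group, glmQLFit and glmQLFTest, Benjamini-Hochberg adjustment over all genes, called at an adjusted p under 0.05). The 5 ages were fitted together in each tissue (18759 genes tested in 12 fibroblast samples and 17995 in 15 hearts), and both tissues in 1 fit of 10 groups (20650 genes). Fibroblast and heart samples of an age were treated as separate animals there, which the labels do not settle. The paper describes the sequenced hearts as the source of the fibroblasts, and a shared animal was not modeled in these p-values. The SE of a log2 fold change was its size divided by the square root of F. Printed levels are CPM with TMM factors over all 27 samples. The p-values measure the spread between these samples. The edgeR fit was first tested on simulated counts, for 4 weeks against postnatal day 1 in each tissue and for the difference of changes.

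The 10 genes and the lists were chosen with earlier results of these data known. All 10 genes are described. From each pathway list the genes called were counted and up to 4 with the largest change in a comparison could be named, and the 5 genes of mean CPM of at least 1 with the highest r were named for each class and tissue, except 1 gene that is not reported here. Alternatives were DESeq2 1.42.0, other scalings, no filter on low counts, no mitochondrial genes, only the groups compared, a replicate block and leaving out each sample. Windows of 65 bases, the read length, were compared between transcripts to find shared sequence.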

Additional observations from a re-analysis of the deposited data

Results flagged for a closer look

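H2-K1, H2-D1 and H2-Ab1 are listed because their change with age differed between fibroblasts and hearts by the test of that difference itself. The difference between the changes was 1.75 on the log2 scale for H2-K1, whose increase between postnatal day 1 and 1.5 years was 5.14 ± 0.24 (SE) in fibroblasts and 3.37 ± 0.34 in hearts. It was 2.10 for H2-D1, with increases of 4.76 ± 0.28 and 2.63 ± 0.24. For H2-Ab1 it was -2.23, with increases of 4.45 ± 0.65 and 6.65 ± 0.40. The per-tissue changes come from the fits of each tissue alone, and the difference from the fit of both. The 1.5-year fibroblasts are 2 samples, and their 6 macrophage markers summed to 60.4 to 70.0 CPM against 483 to 658 CPM in the hearts. The part of these transcripts, and of sex, in the differences was not tested.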

How the results depend on the processing

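The counts of called genes held within 1.5 times in all comparisons against postnatal day 1, over the 5 ages and in the difference of changes, and they moved between later ages. For 4 to 14 weeks in fibroblasts, where none of the 10 was called, DESeq2, median-of-ratios scaling and no filter each called 1. In hearts over those ages DESeq2, library size alone and a fit of only the 2 groups each called 2, and no filter called 1. For 14 weeks to 1 year DESeq2 called 2 and the fit of only the 2 groups 3 in fibroblasts (0 in the fit of all ages), and both called 5 in hearts (2). For 14 weeks to 1.5 years in fibroblasts the fit of only the 2 groups called 6 (3), and for fibroblasts against hearts at postnatal day 1 it called 3 (5). Leaving out 1 sample at a time gave 0 to 1 calls for 4 to 14 weeks and 0 to 1 for 14 weeks to 1 year in fibroblasts, 0 to 4 for 14 weeks to 1.5 years in fibroblasts, and, in hearts, 0 to 2, 0 to 4 and 2 to 6 for the same 3 comparisons. Samples of the same replicate number showed little correlation of their deviations from the group mean. It ran from -0.027 to 0.032 in 7 fibroblast pairs, from -0.058 to 0.103 in 30 heart pairs and from -0.036 to 0.017 in 6 pairs between tissues. In ages of 2 samples the deviations mirror each other, so that fibroblast replicates 4 and 5 of 1 year and 1.5 years gave the same value. Without pairs known to share an animal, these values cannot settle whether samples are paired. With the replicate block, 0 genes were called for 14 weeks to 1.5 years in fibroblasts and 1 for 14 weeks to 1 year in hearts. The block could not be fitted in fibroblasts across the step from 4 to 14 weeks, nor for the difference of changes or the tissues at 1.5 years. No called change turned direction. DESeq2 kept all 60 called changes of single genes. Over the alternatives other than leaving out a sample 382 repeats of these calls passed and 16 did not (7 in fits of only the groups compared, 7 with the block, 2 with library size alone), and with a sample left out 980 passed and 52 did not. Library size alone moved the median of all genes by -0.51 for 4 weeks and -0.60 for 1.5 years against postnatal day 1 in hearts, by -0.25 for 4 to 14 weeks there, by 0.41 for the difference of changes and by 0.34 for the tissues at 1.5 years, and the called directions held under it. The cause of these moves was not tested. Ciita in fibroblasts and neonatal hearts, and H2-Aa in neonatal fibroblasts, rest on few or no reads. Some libraries of other genes also held few reads: Nlrc5 had 1, 109 and 6 reads in neonatal fibroblasts and 0, 1 and 301 in neonatal hearts. These neonatal hearts held 65549600, 65817700 and 66186400 counts, and the cause of their spread in Nlrc5 was not tested. In neonatal fibroblasts H2-Eb1 had 4, 107 and 7 reads and Cd74 had 126, 97 and 8.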
